A study of Mus musculus with 6 samples.

Results

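The E2F transcription factors and their DP partners were followed between a pair of red cell precursor subsets of mouse fetal liver. The family was taken as 10 genes, the E2F genes E2f1 to E2f8 and the partner genes Tfdp1 and Tfdp2. Members were found as probe sets (groups of short array probes for one transcript) whose only gene symbol in the array's annotation is one of these names. This gave 21 of the 45037 non-control probe sets of the array, and all 10 genes had at least 1.

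The tested subset, S3, holds the more mature cells of the sorting scheme and the other, S1, the less mature ones, with 3 arrays each. Both came from Balb/C fetal livers and were separated by flow cytometry on CD71, which takes up transferrin iron, on Ter119, a surface antigen of maturing red cells, and on lineage antigens. The series' design text gives 3 sort days as the biological replicates, and no label says whether arrays of the same number share a day. The stage label gives embryonic day 13.5 for S3 and 12.5 for S1, while the source label gives 13.5 for all 6 arrays, so subset and embryo age cannot be told apart.

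E2F proteins bind DNA mostly as pairs with a DP protein and set the level of genes that cells need to copy their DNA and divide. The pocket proteins (Rb1 and its relatives) bind E2Fs and hold them in a repressive state until cyclin-dependent kinases phosphorylate them. E2f1, E2f2 and E2f3 are called activators, E2f4 and E2f5 work mainly as repressors with pocket proteins, and E2f6, E2f7 and E2f8 repress without them. In mice, fetal red cell formation depends on E2f4 and Rb1, and loss of E2f2 disturbs the late divisions of red cell precursors.

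RefSeq promoter windows (build GRCm38.p6) were available for 8 of the 10 members, 12 windows in all, each with 250 bases before and 50 after an annotated start. E2f4 and E2f5 had none. They were searched on both strands for the E2F letters TTTCCCGC, TTTCGCGC, TTTGCCGC and TTTGGCGC. These letters were found in 5 of the 12 windows, against 2.26% of all 32851 windows. The Tfdp1 windows overlap and hold the same letters at the same place, so they are not independent. By gene, the letters were found in 4 of the 8 (E2f2, E2f3, E2f7 and Tfdp1), against 2.6% of all 27025 genes with a window. These genes include the member called higher in S3 by the widest margin, the 1 called lower, and 2 that were not called. The annotated starts that the windows of E2f1 and E2f8 surround lie 466 and 477 bases inside the gene, and those of Tfdp2 62459 and 63002 bases inside it, so no window was searched at the 5' end of these genes. The stretches below belong to the called riser and the called faller with E2F letters and to the 2 other genes that hold E2F letters. The E2F letters (or their reverse complement) are in capitals.
E2f2, 250 bases before the start, chr4:136172024-136172273, + strand: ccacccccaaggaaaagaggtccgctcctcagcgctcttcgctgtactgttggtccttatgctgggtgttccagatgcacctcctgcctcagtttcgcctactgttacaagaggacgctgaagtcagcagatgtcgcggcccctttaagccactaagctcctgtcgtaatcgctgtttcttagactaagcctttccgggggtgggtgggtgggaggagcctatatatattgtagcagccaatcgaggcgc
E2f2, bases 21 to 50 after the start, chr4:136172294-136172323, + strand: cgaatttggcggcatatagTTTGGCGCtaa
E2f3, 250 bases before the start, chr13:29986064-29986313, - strand: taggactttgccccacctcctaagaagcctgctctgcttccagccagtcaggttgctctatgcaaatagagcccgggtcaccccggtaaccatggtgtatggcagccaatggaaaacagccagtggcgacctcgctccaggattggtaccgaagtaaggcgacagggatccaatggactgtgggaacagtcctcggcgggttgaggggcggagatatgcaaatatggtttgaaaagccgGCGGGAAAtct
E2f7, 60 bases around the letters, chr10:110745214-110745273, + strand: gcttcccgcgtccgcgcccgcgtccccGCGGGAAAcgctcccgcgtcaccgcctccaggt
Tfdp1, 60 bases around the letters, chr8:13338681-13338740, + strand: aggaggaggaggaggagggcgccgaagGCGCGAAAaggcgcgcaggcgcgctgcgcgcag

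The arrays differed in ways that touch the values below. The beta-actin controls, read at 5' minus 3' on the log2 scale, gave -2.20 in S3 replicate 2, -2.08 in S1 replicate 1 and -2.59 in S1 replicate 2. S3 replicates 1 and 3 and S1 replicate 3 gave -0.56 to -0.45. The first kind are called short arrays here, for their weak 5' signal, and the second long arrays. Signals are the authors' log2 values on a scale set by 3 reference probe sets. On it the median log2 change of all 27022 tested probe sets, S3 minus S1, was -0.24, and it was -0.01 with arrays centred on their medians. By limma, with a threshold of 0.05 on the adjusted p, 436 of these probe sets were called higher and 1801 lower (19.5% of calls higher). That share was 39.5% after median centring and 43.7% after quantile normalization. Of the listed red cell markers with a probe set of their own symbol, 10 of 11 read above background on all 6 arrays (summed log2 signal 13.6 to 14 in S3 and 12.8 to 13.2 in S1), and 3 of 10 tested were called higher.

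E2f2 was 6.71-fold and 9.70-fold higher in S3 than in S1 by its 2 probe sets, Tfdp2 was 2.16-fold and 2.18-fold higher by 2 of its 4, and E2f3 fell to 0.594 of its S1 level on the authors' scale only. The other 7 members had no called probe set. Over the family, 4 of the 20 tested probe sets were higher in S3 and 1 was lower, against 1.61% of all probe sets higher and 6.66% lower. Every S3 array lay above every S1 array in 8 of the 20 (5.39% of all probe sets) and below in 3 (22.9% of all). Probe sets of 1 gene read the same transcripts and are not independent. The remaining member probe set, E2f5 1447625_at, was below background on all 6 arrays (mean log2 signal -3.32) and was not tested, and the dimmest tested one was E2f6 1437914_at at 2.28, where the filter on dim probe sets stood at 1.13. Levels are not compared between probe sets, because probes differ in brightness for the same amount of RNA.

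**Figure D1:**
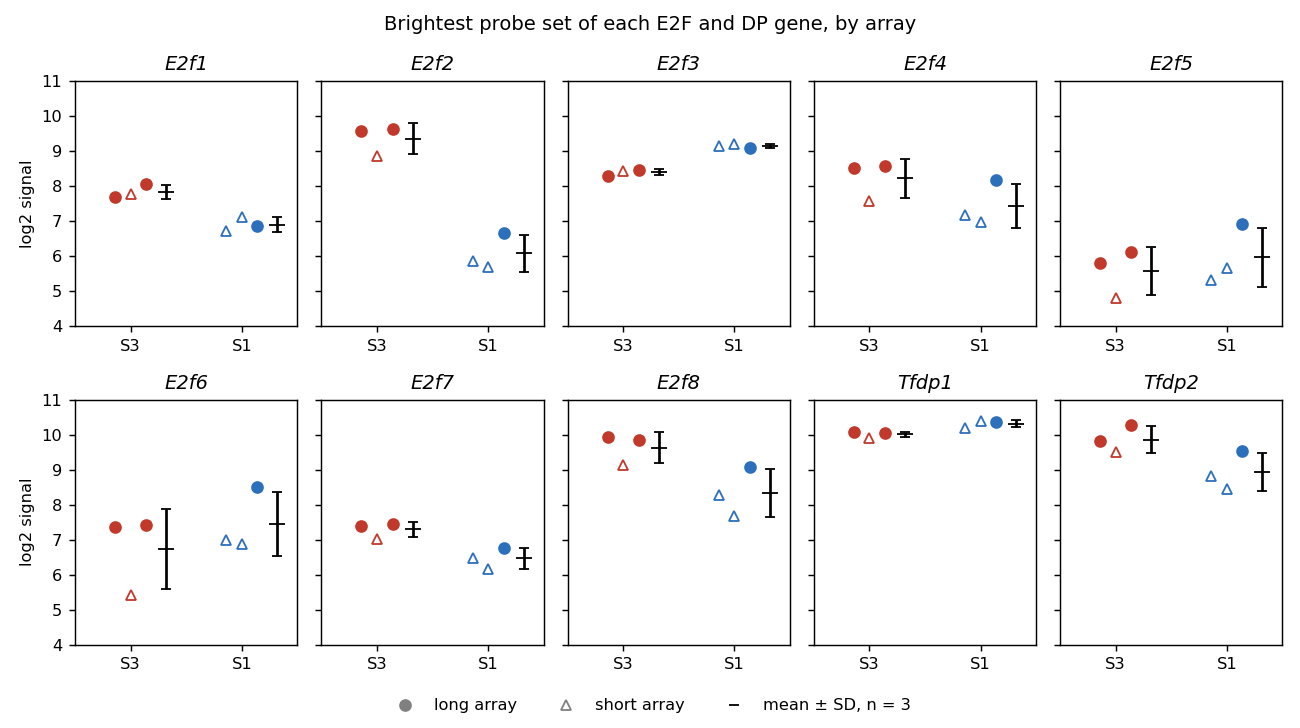
Log2 signal of the brightest probe set of each E2F and DP gene on each array, S3 in red and S1 in blue; filled circles are long arrays, open triangles short arrays, and the bar is the mean ± SD (n = 3). E2f2 separates the subsets most widely, with S3 arrays at 8.85 to 9.64 and S1 arrays at 5.70 to 6.67, while in E2f4, E2f5 and E2f6 the long and short arrays of 1 subset lie as far apart as the subsets.

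E2f2, an activator of genes for DNA replication, was the member that changed most. Probe set 1436434_at read 9.57, 8.85 and 9.64 log2 units in S3 replicates 1 to 3, against 5.87, 5.70 and 6.67 in S1 replicates 1 to 3. The lowest S3 array lay above the highest S1 array by more than the range within either subset. The log2 change was 3.28 ± 0.37 (SE), a 9.70-fold higher signal (limma adjusted p = 0.00511). Since the arrays read sorted cells in bulk, a different mix of cells and a different amount of RNA per cell cannot be told apart.

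The other E2f2 probe set, 1455790_at, read 9.01, 8.69 and 9.10 in S3 and 6.45, 5.49 and 6.63 in S1. The subsets again did not overlap. The log2 change was 2.75 ± 0.37 (SE), or 6.71-fold (limma adjusted p = 0.00755). Within the long arrays (2 S3, 1 S1) the log2 difference was 2.94 for the first probe set and 2.43 for the second, and within the short arrays (1 S3, 2 S1) 3.07 and 2.72. Each probe set was called in 15 of 16 other fits. The exception was the short arrays alone (adjusted p = 0.0693 and 0.0866), a fit that called no probe set of the array in limma, where 5893 of 27022 had an unadjusted p under 0.05.

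E2f1, the activator best known for driving entry into S phase, was higher in S3 by its brightest probe set but was not called. That probe set, 1417878_at, read 7.68, 7.78 and 8.06 in S3 and 6.72, 7.13 and 6.85 in S1. Every S3 array lay above every S1 array. The log2 change was 0.94 ± 0.29 (SE; limma adjusted p = 0.0992). With short and long arrays as a block it was 0.94 and passed (adjusted p = 0.00922). It was not called after median centring (adjusted p = 0.0815), quantile normalization (0.0644) or leaving out any 1 array (0.162 to 0.329). Within the long arrays the difference was 1.02, and within the short ones 0.85. The dimmer 1431875_a_at changed by 0.37 ± 0.42 and 1447840_x_at by 0.04 ± 0.82 (SE), neither called, and the last had the opposite sign in 6 of 15 other fits. An x in such a name marks probes that may also bind other transcripts.

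E2f3, the third activator, was the 1 member lower in S3 by the test. Probe set 1434564_at read 8.30, 8.43 and 8.45 in S3, against 9.15, 9.19 and 9.08 in S1. All 3 S3 arrays lay below the S1 arrays, with little spread in either subset. The difference was -0.75 ± 0.17 (SE; limma adjusted p = 0.0406), and within the long and the short arrays it was -0.71 and -0.74. Relative to the median of all probe sets it was -0.51, and it was not called after median centring (-0.52, adjusted p = 0.462) or quantile normalization (-0.47, adjusted p = 0.270), nor without the filter (0.0651) or the intensity trend (0.163). Leaving out any 1 of the 6 arrays ended the call (adjusted p from 0.0700 without S3 replicate 2 to 0.148 without S1 replicate 2). The dimmer probe set, 1427462_at, gave a like difference of -0.77 ± 0.44 (SE), also with no overlap, and was not called (adjusted p = 0.383). RefSeq lists a second E2f3 start 1673 bases inside the gene. Which start the probe sets read was not tested.

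E2f4, the repressor on which mouse fetal red cell formation depends, has 1 probe set, 1451480_at. It read 8.50, 7.58 and 8.58 in S3, against 7.17, 6.98 and 8.16 in S1. The long S1 array lay above the short S3 array, so the subsets overlapped. The change of 0.78 ± 0.42 (SE) was not called (limma adjusted p = 0.343). It was 0.38 within the long and 0.50 within the short arrays, and long arrays exceeded short ones of the same subset by 1.03 on average. It passed in 2 of 16 other fits, quantile normalization (1.11, adjusted p = 0.0247) and the array block with median centring (0.89, adjusted p = 0.0406).

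E2f5, the other repressor of this kind, was not called. Probe set 1460207_s_at read 5.81, 4.81 and 6.11 in S3, against 5.32, 5.64 and 6.92 in S1. The values overlapped, with the long arrays of each subset above its short ones. Its log2 change was -0.39 ± 0.58 (SE; limma adjusted p = 0.793). Among fits with more than 1 array in each subset, it passed only with the array block (-0.82, adjusted p = 0.0419). That block called 28.2% of all probe sets lower. Within the long arrays the difference was -0.97, and within the short ones -0.675. Probe set 1417444_at changed by -0.05 ± 0.84 (SE), with the opposite sign in 4 of 16 other fits. An s in the name marks probes shared by several transcripts.

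E2f6, which represses through Polycomb group proteins, was not called. Probe set 1448835_at read 7.37, 5.42 and 7.41 in S3, against 6.98, 6.86 and 8.50 in S1. Within each subset the long arrays were the higher ones, by 1.77 on average, and the subsets overlapped. Its log2 change was -0.72 ± 0.67 (SE; limma adjusted p = 0.635). With the array block it was -1.31 and passed (adjusted p = 0.00154), but not with the block after median centring (-0.86, adjusted p = 0.0724). On the authors' scale the array block called 28.2% of all probe sets lower. The dim 1437914_at, above background on 2 of 3 S3 arrays and all 3 S1 arrays, changed by -1.14 ± 0.71 (SE; adjusted p = 0.428).

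E2f7 and E2f8 encode atypical E2Fs that bind DNA without a DP partner and repress genes late in the cell cycle. E2f7 read 7.39, 7.03 and 7.44 in S3, against 6.46, 6.17 and 6.76 in S1 (probe set 1437187_at). The subsets did not overlap. The log2 change of 0.83 ± 0.34 (SE) was not called (limma adjusted p = 0.203), while the array block gave 0.69 (adjusted p = 0.0249). E2f7 passed in 3 of 16 other fits, and not after median centring (1.06, adjusted p = 0.103) or leaving out any 1 array (0.194 to 0.473). E2f8 read 9.93, 9.12 and 9.83 in S3, against 8.26, 7.68 and 9.06 in S1 (probe set 1436186_at). Here too every S3 array was above every S1 array, the gap being smallest between short S3 replicate 2 and long S1 replicate 3. A log2 change of 1.29 ± 0.37 (SE; limma adjusted p = 0.0804) was not called, and it was 0.82 within the long and 1.15 within the short arrays. The dimmer E2f8 probe set, 1444319_at, read 6.53, 4.80 and 6.67 in S3, against 2.28, 3.24 and 4.87 in S1. It overlapped by 1 pair of arrays and changed by 2.54 ± 0.80 (SE; adjusted p = 0.102). Both E2f8 probe sets passed after median centring (adjusted p = 0.0222 and 0.0154), after quantile normalization, with the array block, and without S1 replicate 3 (adjusted p = 0.0311 and 0.0490).

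**Figure D2:**
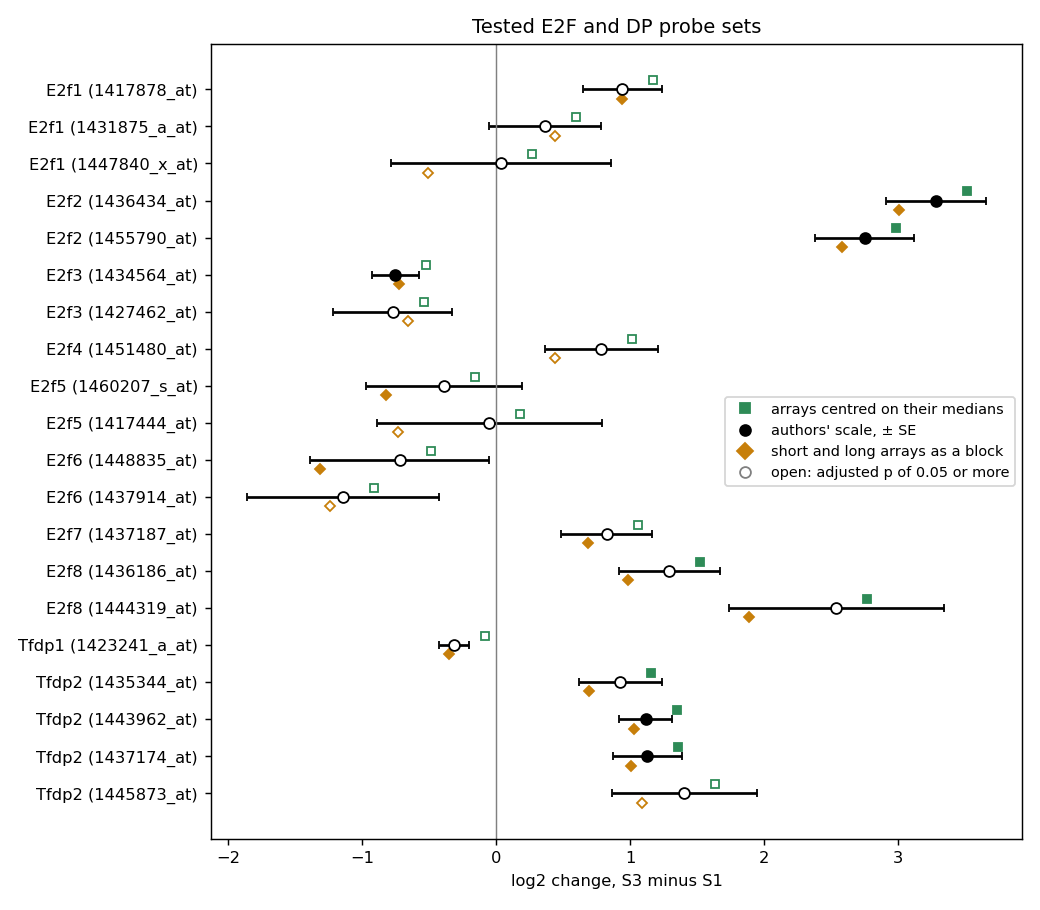
Log2 change, S3 minus S1, of the 20 tested E2F and DP probe sets: circles are limma changes ± SE on the authors' scale, squares the same after centring arrays on their medians, and diamonds with short and long arrays as a block; filled marks passed an adjusted p of 0.05. The 2 E2f2 probe sets are filled in all 3 fits (3.28 and 2.75 on the authors' scale), while E2f3 (-0.75) is filled on the authors' scale and with the block but open after centring.

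Tfdp1, the widely expressed DP gene, read 10.06, 9.90 and 10.04 in S3, against 10.19, 10.39 and 10.36 in S1 (probe set 1423241_a_at). The S3 arrays were all slightly lower. They differed by -0.31 ± 0.11 (SE; limma adjusted p = 0.145), which is -0.07 relative to all probe sets, and its sign turned with the array block after median centring (0.10, adjusted p = 0.824). The reference annotation also lists a Tfdp1 pseudogene, and what it adds to this signal was not tested.

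Tfdp2, the other DP gene, was higher in S3 by all 4 of its probe sets, 2 of them called. Probe set 1443962_at read 9.69, 9.43 and 9.64 in S3, against 8.18, 8.58 and 8.66 in S1, and 1437174_at read 8.84, 8.46 and 8.87 in S3, against 7.31, 7.65 and 7.83 in S1. Neither overlapped between subsets. The log2 changes were 1.11 ± 0.19 (SE; limma adjusted p = 0.0161) and 1.13 ± 0.25 (SE; adjusted p = 0.0375), or 2.16-fold and 2.18-fold. Both held after median centring (adjusted p = 0.0242 and 0.0239), after quantile normalization and with the array block (adjusted p = 0.00133 and 0.00204). Leaving out S1 replicate 1 or 2 or S3 replicate 1 or 3 ended both calls, with adjusted p up to 0.0827 for the first and 0.162 for the second, each without S3 replicate 3. Neither was called without the intensity trend (0.0848 and 0.0925).

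The brightest Tfdp2 probe set, 1435344_at, read 9.80, 9.51 and 10.26 in S3, against 8.82, 8.45 and 9.53 in S1. It overlapped by 1 pair of arrays, the short S3 array and the long S1 array. Its change of 0.93 ± 0.31 (SE; limma adjusted p = 0.118) passed in 7 of 16 other fits, among them median centring (adjusted p = 0.0384) and the fit without S1 replicate 3 (adjusted p = 0.0415). The dim 1445873_at changed by 1.40 ± 0.54 (SE; adjusted p = 0.175).

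Differences between 2 members on the same array are not changed by adding a constant to an array, as the scaling to reference probe sets and median centring do, but quantile normalization can change them. Those shown were chosen after the members' values were seen, so they carry no test, and only their change between arrays has a meaning. Set to 0 on average over the 6 arrays, Tfdp2 minus Tfdp1 was 0.50, 0.37 and 0.99 in S3, against -0.61, -1.18 and -0.07 in S1. The mean in S3 lay above that in S1 by 1.24, and the subsets did not overlap. E2f2 minus E2f3 was 2.33, 1.47 and 2.25 in S3, against -2.23, -2.45 and -1.36 in S1, a shift of 4.03. E2f1 minus E2f3 shifted by 1.69, with 0.74 to 1.01 in S3 and -1.03 to -0.67 in S1. In all 3 the S3 arrays lay above the S1 arrays. The kind of array can still move such differences, and S3 holds more long arrays than S1. Long arrays exceeded short ones of the same subset by 0.71 for this Tfdp2 probe set and 0.11 for Tfdp1. For E2f2 and E2f3 these values were 0.82 and -0.08. The part of array kind in the shifts was not tested.

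**Figure D3:**
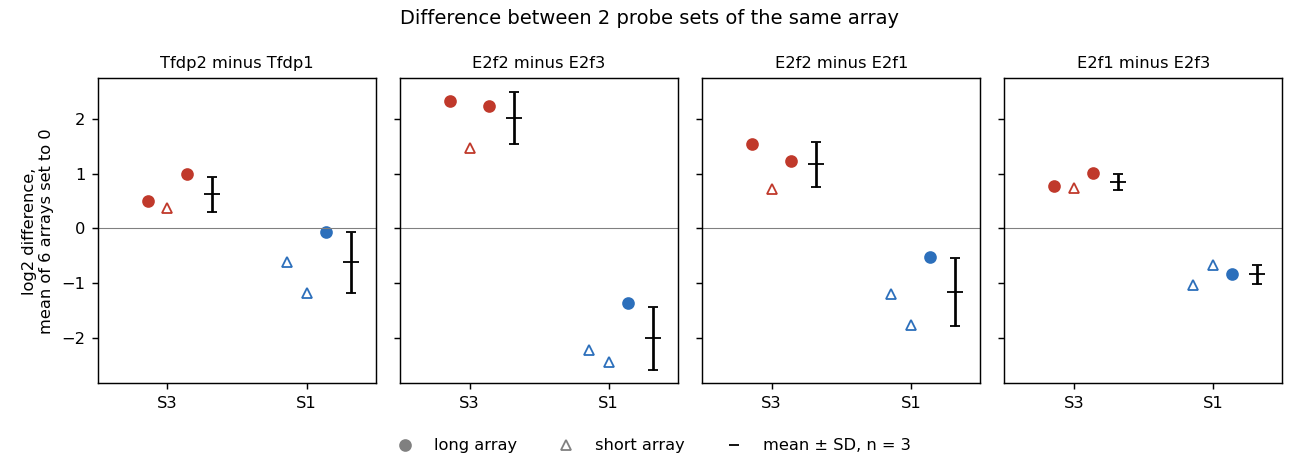
Log2 difference between the brightest probe sets of 2 members on the same array, with the mean over the 6 arrays set to 0; filled circles are long arrays, open triangles short arrays, and the bar is the mean ± SD (n = 3). S3 arrays lie above S1 arrays in every panel, by a mean of 4.03 for E2f2 minus E2f3 and 1.24 for Tfdp2 minus Tfdp1.

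The genes whose pattern over the 6 arrays lay closest to E2f2 and E2f3 were found among 11958 other genes, each by its brightest probe set. Likeness was the root mean square difference of log2 values, each gene centred on its own mean. For E2f2 they were Paqr6 (0.139), Dmtn (0.244), the dematin gene of the red cell skeleton, and Gpr146 (0.249). For E2f3 they were Cpsf4 (0.0362), which encodes a factor of mRNA 3' end processing, Tgs1 (0.0657), an RNA cap methyltransferase, and Zeb1 (0.0664), a zinc finger repressor. Of these Zeb1 was not called (log2 change -0.64 ± 0.21 (SE), limma adjusted p = 0.0816).

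The genes that act on E2Fs were read from lists, with 1 probe set a gene and limma p-values adjusted over 11959 genes, of which 2.53% were higher and 12.8% lower in S3. By the same measure E2f2 and E2f3 were the called members, 1 higher and 1 lower of 10, and the members' median log2 change was 0.80, where that of all genes was -0.33. Rb1, the retinoblastoma pocket protein, rose to 9.46 ± 0.27 in S3, against 7.87 ± 0.56 in S1 (SD, n = 3 arrays each; limma log2 change 1.60 ± 0.31 (SE), adjusted p = 0.0161). It was the 1 called gene of 3 pocket proteins. Rbl1 (p107) changed by 0.61 ± 0.25 (SE; adjusted p = 0.148) and Rbl2 (p130) by 0.47 ± 1.17 (SE; adjusted p = 0.848).

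The lists held 10 tested kinases and cyclins that phosphorylate pocket proteins or act with them. Of these 1 rose (2.53% of all genes), 3 fell (12.8% of all genes) and 6 were not called. The D-type cyclins differed among themselves, with Ccnd3 called higher, Ccnd2 called lower and Ccnd1 not called (-0.12 ± 0.41 (SE), adjusted p = 0.896). Cdk6 fell to 3.69 ± 0.84 in S3, against 7.69 ± 0.90 in S1 (SD, n = 3 each; limma log2 change -4.00 ± 0.62 (SE), adjusted p = 0.00756), and was called in all 17 other fits. Ccnd2 (cyclin D2) fell by 2.30 on the log2 scale (adjusted p = 0.0111) and Cdk4 by 0.54 (adjusted p = 0.0343), while Ccnd3 (cyclin D3) rose to 9.84 ± 0.48 in S3, against 7.51 ± 0.87 in S1 (limma log2 change 2.32 ± 0.45 (SE), adjusted p = 0.0162). The fall of Cdk4 was not called after median centring (adjusted p = 0.636), quantile normalization (0.121) or without the intensity trend (0.183). With the mean of a gene's probe sets Ccnd2 gave -1.39 (adjusted p = 0.222) and Ccnd3 2.20 (adjusted p = 0.0522).

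CDK inhibitors keep pocket proteins unphosphorylated. Of 5 tested, 3 rose (2.53% of all genes), none fell (12.8% of all genes) and 2 were not called. Cdkn2c (p18) rose to 8.16 ± 0.66 in S3, against 4.54 ± 1.38 in S1 (SD, n = 3 each; limma log2 change 3.62 ± 0.72 (SE), adjusted p = 0.0170). Cdkn2d (p19) rose by 2.65 ± 0.58 (SE; adjusted p = 0.0233) and Cdkn1b (p27) by 0.80 ± 0.18 (SE; adjusted p = 0.0264), though Cdkn1b was not called after median centring (1.03, adjusted p = 0.0623) or without the intensity trend (0.0726). Of the other two, Cdkn1a (p21) changed by 1.15 ± 0.64 (SE; adjusted p = 0.289). Cdkn1c (p57) was above background on 2 of 3 S3 arrays and on 0 of 3 S1 arrays and passed the filter only through S3. It read 2.67, 4.32 and 0.50 in S3, against 1.04, 0.33 and -0.84 in S1, so the subsets overlapped. No fold is given for signals below background, and Cdkn1c was not called (limma adjusted p = 0.179). Without S1 replicate 1, S3 replicate 1 or S3 replicate 3 none of the 3 inhibitors was called by limma (adjusted p 0.0601 to 0.109), nor was Rb1 (0.0618 to 0.0694) or Ccnd3 (0.0609 to 0.0671). Without S1 replicate 2, Rb1 (adjusted p = 0.0678), Ccnd3 (0.0512), Cdkn2d (0.0791) and Cdkn1b (0.0763) were not called, and Ccnd2 missed the threshold without S1 replicate 1 (0.0600). Cdkn1b was also not called without S3 replicate 2 (0.0625), and Cdk4 was called without S1 replicate 1 (0.0485) but not without any other array (0.0570 to 0.125).

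E2f6 works in a complex with Mga, Max, L3mbtl2 and Polycomb group proteins. Of 10 tested partners, 4 fell on the authors' scale (against 12.8% of all genes) and none rose (2.53% of all genes). Rnf2, a ubiquitin ligase for histone H2A, fell to 7.78 ± 0.05 in S3, against 8.75 ± 0.02 in S1 (SD, n = 3 each; limma log2 change -0.97 ± 0.19 (SE), adjusted p = 0.0180). Mga, a scaffold that binds DNA with Max, fell by 1.13 on the log2 scale (adjusted p = 0.0232), Max by 0.58 (adjusted p = 0.0357) and Yaf2 by 0.55 (adjusted p = 0.0408). After median centring none of the 10 was called (limma adjusted p = 0.215 for Rnf2, 0.0631 for Mga), while Mga was called after quantile normalization (-0.87, adjusted p = 0.00905) and with the array block after median centring (-0.87, adjusted p = 0.00810). Without the intensity trend Mga (0.0651), Max (0.153) and Yaf2 (0.165) were not called. The list's median was -0.57, where that of all genes was -0.33. With the mean of a gene's probe sets none was called either (0.604 for Mga and 0.784 for Rnf2). Leaving out S1 replicate 1 or 2 or S3 replicate 1 or 3 ended all 4 calls (limma adjusted p 0.0511 to 0.142), leaving out S1 replicate 3 ended those of Mga (0.0582), Max (0.101) and Yaf2 (0.0686), and leaving out S3 replicate 2 ended that of Max (0.0766).

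E2F targets were read in the same way. The 27 tested G1/S targets (replication and nucleotide synthesis genes) changed by -1.18 to 0.83 on the log2 scale. Their median was 0.17, where that of all genes was -0.33. None rose (2.53% of all genes), 3 fell (12.8% of all genes) and 24 were not called. The 3 were the phosphatase gene Cdc25a (-1.18 ± 0.29 (SE), limma adjusted p = 0.0341), the uracil glycosylase gene Ung (-0.99 ± 0.21, adjusted p = 0.0226) and the mismatch repair gene Msh6 (-0.68 ± 0.16, adjusted p = 0.0304). None of these was called after median centring (adjusted p = 0.163, 0.292 and 0.477) or without the intensity trend (0.0572, 0.0689 and 0.115). Leaving out any 1 array ended the calls of Cdc25a (0.0608 to 0.123) and Msh6 (0.0541 to 0.110), and that of Ung ended without S1 replicate 1 or 2 or S3 replicate 1 or 3 (0.0754 to 0.0926). In all, 4 of the 27 had an unadjusted p under 0.05. Targets called higher and lower numbered 1 and 0 after median centring and 2 and 0 after quantile normalization. With the array block they were 2 and 4, where that block called 5.81% of all genes higher and 41.2% lower.

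E2f4 or E2f5 represses G2/M targets in resting cells, together with p107 or p130 and the MuvB complex. The 21 tested ones changed by -0.21 to 1.44 on the log2 scale. Their median was 0.64, where that of all genes was -0.33. Of them 1 rose (2.53% of all genes), none fell (12.8% of all genes) and 20 were not called. The riser was the spindle gene Nusap1, at 9.90 ± 0.20 in S3, against 8.89 ± 0.27 in S1 (SD, n = 3 each; limma log2 change 1.01 ± 0.19 (SE), adjusted p = 0.0138). It was not called with the mean of its probe sets (1.52, adjusted p = 0.117), without the intensity trend (0.0579), nor without S1 replicate 1 or 2 or S3 replicate 1 or 3 (0.0590 to 0.0648). With the array block 6 of the 21 were higher and 1 lower, where that block called 5.81% of all genes higher and 41.2% lower. Of 6 MuvB core genes and B-Myb (Mybl2) none was called in limma or had an unadjusted p under 0.05, the nearest being Mybl2 (0.65 ± 0.29 (SE), adjusted p = 0.190).

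**Figure D4:**
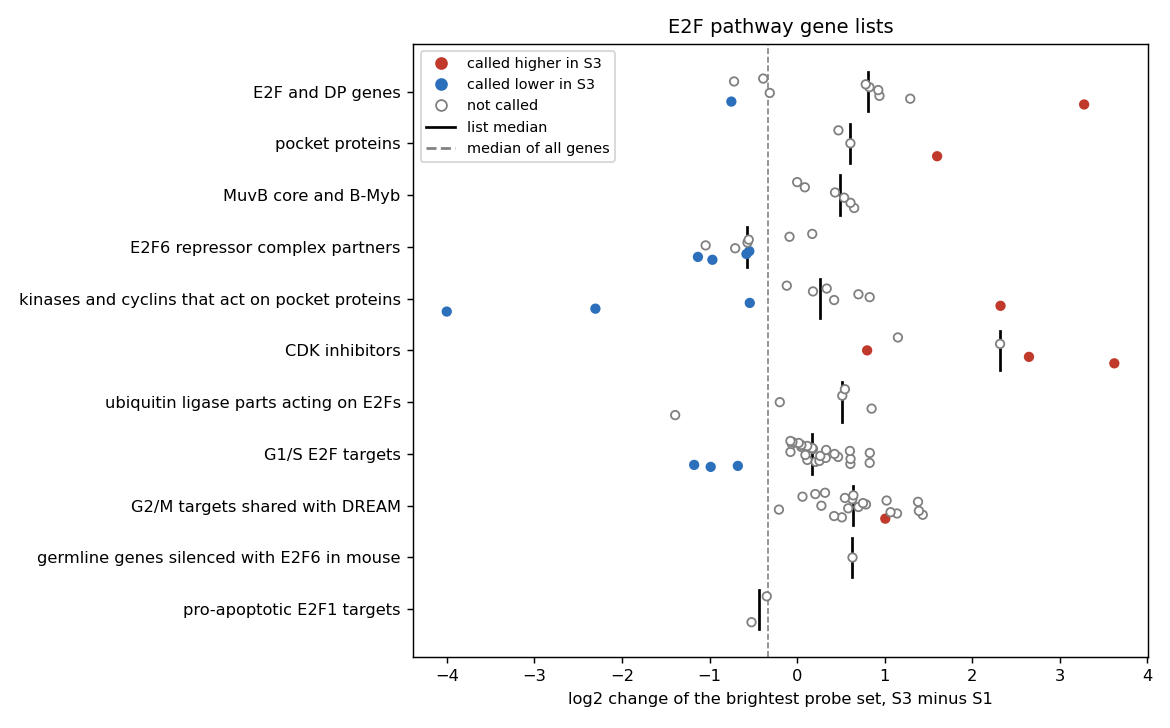
Log2 change, S3 minus S1, of the brightest probe set of each tested gene in the E2F pathway lists; red and blue dots are genes called higher and lower in S3 by limma, open dots were not called, black bars are list medians and the dashed line is the median of all genes (-0.33). The members' own median is 0.80, and the bar of the CDK inhibitors lies at Cdkn1c, which was not above background on any S1 array.

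Over the other scales and the array block, more members were called higher and those called lower depended on the scale. Median centring gave 7 higher member probe sets (2.77% of all higher), quantile normalization 10 (4.06% of all), and the array block 9 (4.16% of all). None was lower after median centring (4.23% of all) or quantile normalization (5.23% of all) in limma, with 0 also at an unadjusted p under 0.05. The array block called 4 lower (28.2% of all probe sets), from E2f3, E2f5, E2f6 and Tfdp1.

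Markers of other cells that a sort of fetal liver could hold were read beside these values. Summed signals of 6 megakaryocyte markers lay at log2 8.47 to 8.57 in S3 and 6.32 to 7.46 in S1, with 1 of 6 called higher. All 6 of these markers were above background on all 6 arrays. Summed signals of 10 hepatoblast markers lay at 8.16 to 10.1 in S3 and 8.29 to 8.64 in S1, with none of 10 called. Of these 10 markers, 8 were above background on all 6 arrays. The 12 macrophage markers summed to 5.53 to 6.68 in S3 and 5.15 to 6.96 in S1. Of these, 2 (Cd68 and C1qb) were above background on all 6 arrays. Another 4 (Adgre1, C1qc, Mertk and Cd14) were below it on all 6, and the rest were above it on some arrays. Endothelial markers summed to 2.66 to 3.48 in S3 and 3.40 to 3.91 in S1, stromal ones to 4.72 to 5.42 in S3 and 4.52 to 5.19 in S1. Granulocyte and mast cell markers summed to 3.81 to 7.19 in S3 and 4.52 to 6.68 in S1, with Elane and Ctsg below background on all 6 arrays and 1 of 5 tested called lower, and lymphoid ones to 0.604 to 1.31 in S3 and 0.949 to 2.62 in S1. The part of such cells in the E2F and DP values was not tested.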

How the data were processed

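RNA of sorted cells was amplified with the Ovation system, labelled with biotin and hybridised to Affymetrix mouse expression arrays, per the labels' protocols. The series' design text says that MAS5 signals were scaled to the mean of 3 reference probe sets (18S RNA, Gapdh, beta-actin). The deposited values are log2 signals. The log base is not stated, and 2 was taken from their size. The MAS5 version is not given in the sources used here. Detection calls were not used here. The number of arrays limits the precision.

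Probe sets with 1 symbol were named (34945 of 45037). Probe sets whose mean signal over the 6 arrays exceeded the 40th percentile of all means were tested. The difference between subsets, S3 over S1, came from limma 3.58.1 in R 4.3.3 (intensity trend, two-sided, no covariate), with Benjamini-Hochberg adjustment over 27022 probe sets, or over 11959 genes by their brightest probe set, at 0.05. Residual degrees of freedom were 4. Background was each array's 95th percentile of 27 bacterial control probe sets (log2 1.01 to 1.74). The fits were tested on simulated arrays. All member probe sets were described. Of each list, up to 4 called genes with the smallest p were named (2 where none was called), and others given with them were chosen after their values were seen. Members and lists were chosen with earlier results of these data known. Alternatives were 2 scalings, the short and long array block with and without centring, each array kind alone, 2 filters, no trend, a replicate block, the mean over probe sets and leaving out each array.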

Additional observations from a re-analysis of the deposited data

How the results depend on the processing

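Counts are given as higher then lower in S3. On the authors' scale limma called 4 and 1 member probe sets, 436 and 1801 probe sets of the whole table, and 302 and 1533 genes. Median centring gave 7 and 0 members, 748 and 1144 probe sets, and 478 and 972 genes. Quantile normalization gave 10 and 0 members, 1096 and 1412 probe sets, and 698 and 1125 genes. The short and long array block gave 9 and 4 members, 1125 and 7618 probe sets, and 695 and 4922 genes, and after median centring 11 and 0, 1617 and 2639, and 1024 and 2013. Long arrays alone gave 8 and 3, 1170 and 7040, and 617 and 4151. Short arrays alone gave 0 and 0 members and 0 and 0 probe sets (6 and 2 members, and 5893 probe sets in all, at an unadjusted p under 0.05), with 337 and 2601 genes; both fits of 3 arrays have 1 array in a subset, which is assumed to vary like the other. Without the filter there were 4 and 0 members (10 and 2 at an unadjusted p under 0.05), and without the intensity trend 2 and 0 (9 and 1), with 254 and 1142 probe sets. The mean of a gene's probe sets gave 241 and 991 genes. Leaving out 1 array gave 2 to 7 and 0 to 0 members, 95 to 488 and 314 to 1282 probe sets, and 119 to 370 and 541 to 1273 genes. Deviations from the subset means correlated with r of 0.02, 0.39 and 0.41 between same-numbered arrays. Between differently numbered ones r was -0.55 to 0.39, the highest being S1 replicate 3 with S3 replicate 1. No label ties a number to a shared day, so the numbers were not taken as pairs. The replicate block gave 6 and 1 members, 634 and 2308 probe sets, and 412 and 1897 genes. Its members called besides those on the authors' scale were E2f8 1436186_at (limma adjusted p = 0.0207) and Tfdp2 1435344_at (0.0172). Over the other fits 245 member values kept direction and call, 35 gained the call, 26 lost it and 12 changed sign. E2f1 1447840_x_at changed sign with the array block (-0.51), the block with centring (-0.056), in short arrays alone (-1.56) and without S1 replicate 1 (-0.13), S3 replicate 1 (-0.29) or S3 replicate 3 (-0.53), and was 0.94 without S3 replicate 2. E2f5 1417444_at changed sign with median centring (0.18), quantile normalization (0.28) and without S1 replicate 3 (0.53) or S3 replicate 2 (0.73), and was -0.61 without S1 replicate 2. E2f5 1460207_s_at was 0.094 without S1 replicate 3 and -0.71 when S1 replicate 1 was the array left out, and Tfdp1 was 0.10 with the block and centring. Stag3 was -0.059 in short arrays alone, and Apaf1 lay between -0.81 without S3 replicate 3 and 0.000414 without S3 replicate 2. The cause was not tested.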

Other observations

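On the authors' scale, targets tied to single E2Fs had no probe set of their own symbol, were too dim to test or were not called. Of 5 listed germline genes that E2f6 helps to silence in mouse, 4 had a probe set of their own symbol. Of these 4 only the cohesin gene Stag3 was bright enough to test, at 4.66 ± 1.06 in S3 and 4.03 ± 0.92 in S1 (mean log2 signal ± SD, n = 3 arrays each; limma log2 change 0.63 ± 0.70 (SE), adjusted p = 0.634). Of 6 listed apoptosis genes that E2f1 can drive, 4 had such a probe set and 2 of these were bright enough to test. The caspase activator Apaf1 changed by -0.52 ± 0.54 (SE; limma adjusted p = 0.605) and Bcl2l11 (Bim) by -0.35 ± 0.38 (SE; adjusted p = 0.632). With short and long arrays as a block both were lower (-0.98, adjusted p = 0.00123, and -0.67, adjusted p = 0.00372), where that block called 41.2% of all genes lower.

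None of 5 tested ubiquitin ligase parts that act on E2Fs was called in limma, while 1 had an unadjusted p under 0.05. Skp2, the F-box protein linked to E2f1 and p27 breakdown, read 6.66 ± 0.61 in S3 and 8.05 ± 0.61 in S1 (SD, n = 3 each; limma log2 change -1.39 ± 0.45 (SE), adjusted p = 0.0788), with no overlap between the subsets. It passed in 7 of 17 other fits, among them the array block (-1.72, adjusted p = 0.000153). That block called 41.2% of all genes lower. With the mean of its probe sets Skp2 gave -0.75 and was not called (limma adjusted p = 0.522). Ccnf (cyclin F) changed by 0.85 ± 0.48 (SE; adjusted p = 0.305).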
